A study of Mus musculus with 4 samples.

Results

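The Nr4a family comprises 3 genes, Nr4a1, Nr4a2 and Nr4a3, which were found by their symbols among the 27998 genes counted in this study, each under a single symbol. Their level was examined in LSK cells, the Lin-Sca1+cKit+ fraction of mouse bone marrow that holds the hematopoietic stem cells and the earliest progenitors. The RNA of single cells was counted in 4 libraries, with n = 2 for the control and n = 2 for the Nup358 knockout. A library held the marrow of 3 mice, which makes 6 mice of 9 to 12 weeks per genotype. Control mice were Nup358 fl/fl (labelled wild-type), which carry the floxed allele without a recombinase. Knockout mice were Nup358 fl/fl with R26-CreERT2, a Cre recombinase that is expressed in every tissue and is active only with tamoxifen, which was given for 3 days. The deletion was therefore not limited to blood cells, and control mice were given tamoxifen too. The exact time between tamoxifen and the sort is not stated for these libraries, and the study's account of the mice limits it to a few days. Since a library is a pool, p-values measure the spread between pools and not between mice.

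The Nr4a proteins are orphan nuclear receptors, transcription factors with the build of a steroid receptor but without a known hormone that switches them on. They are controlled mainly by how much of them is made: their genes belong to the immediate early genes, which are transcribed within minutes of a signal, through factors such as CREB, MEF2 and SRF that are already present in the cell. Nr4a1 (Nur77) and Nr4a3 (Nor1) are known to hold back the division of hematopoietic stem cells, and Nr4a2 (Nurr1) is known for its part in dopamine neurons and is also made in stem cells.

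Nr4a1 (ENSMUSG00000023034) lies on chromosome 15 of GRCm38, from 101254269 to 101274795 on the plus strand. Nr4a2 (ENSMUSG00000026826) lies on chromosome 2, from 57106830 to 57124003 on the minus strand, and Nr4a3 (ENSMUSG00000028341) on chromosome 4, from 48045153 to 48086447 on the plus strand. The sequence just before the RefSeq start site of each member is shown, from the RefSeq promoters of GRCm38.p6, in which all 3 members were found. Capitals mark TGACG or its other strand CGTCA, the 5 bases at the core of the cAMP response element that CREB binds. Each line runs from 5′ to 3′ on the strand of the gene, starts 250 bases before the RefSeq start site and ends just before the site or before the first annotated exon. The Nr4a1 window is chr15:101266596-101266845 on the plus strand, the Nr4a2 window is chr2:57124004-57124253 on the minus strand, and the Nr4a3 stretch is chr4:48045055-48045152 on the plus strand. The Nr4a1 window lies inside the gene as given above, before a RefSeq start site downstream of its first annotated base. The sequence before that first base was not examined. For Nr4a3, the last 152 bases of the window lie in an annotated exon and are not shown.
Nr4a1: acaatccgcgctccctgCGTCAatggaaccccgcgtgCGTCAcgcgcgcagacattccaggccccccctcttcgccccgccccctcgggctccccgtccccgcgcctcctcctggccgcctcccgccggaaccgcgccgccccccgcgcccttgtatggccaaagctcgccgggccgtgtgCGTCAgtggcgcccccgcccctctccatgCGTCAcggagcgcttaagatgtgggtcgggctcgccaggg
Nr4a2: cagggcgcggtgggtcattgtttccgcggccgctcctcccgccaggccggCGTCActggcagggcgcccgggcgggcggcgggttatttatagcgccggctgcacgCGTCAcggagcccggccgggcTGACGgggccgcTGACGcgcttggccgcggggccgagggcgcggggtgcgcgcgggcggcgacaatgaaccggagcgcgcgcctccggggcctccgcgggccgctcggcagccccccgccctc
Nr4a3: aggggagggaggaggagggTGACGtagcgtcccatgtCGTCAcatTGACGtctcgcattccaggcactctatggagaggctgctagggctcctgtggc
Each member held 4 matches of this core within its window of 250 bases, and in Nr4a3 the fourth of them lay in the exon that is not shown. Among all 32851 RefSeq windows of this length, 17.8% held at least 1 match and 45 windows (0.137%) held at least 4. The full palindrome TGACGTCA was in none of the windows of the members and in 1.55% of all windows. The site that the Nr4a proteins themselves bind (AAAGGTCA, or TGACCTTT on the other strand) was also in none of them and in 1.34% of all windows. The windows compared were not matched to the members in base composition. These are matches of letters, and no binding was measured here. Their part in the levels of the members was not tested.

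The libraries shared cell barcodes, which bears on every value below. Of the barcode sequences, 6680 occurred in more than 1 library. Here a barcode is called copied if another library held its sequence with 3 times its UMIs or more (unique molecular identifiers, each standing for 1 captured RNA molecule). Copied barcodes made up 14.8% and 81.8% of the barcodes of the control libraries and 65.3% and 18.8% of those of the knockout libraries. They were left out here, and the values with them are given where the Nr4a genes are first compared. This left 14041 of 25242 deposited barcodes, namely 7830 and 1200 control cells and 1589 and 3422 knockout cells, in which 6 barcode sequences were still shared. They held 59033602 and 18846887 control UMIs and 32736147 and 53844729 knockout UMIs. The median was 6251 and 13175.5 UMIs per control cell and 17707 and 14398.5 per knockout cell, so that control replicate 1 was the shallowest library per cell. Levels are UMIs per 1000000 UMIs of the summed cells (CPM). Kit and Ly6a, the genes of the 2 sorted proteins cKit and Sca1, were present in all 4 libraries at 73.3 to 102.7 CPM and 133 to 317 CPM. The lineage genes Cd3e, Cd4, Cd8a, Ly6g and Klrb1c stayed at or below 3.55 CPM. Ranbp2, the gene of Nup358, was at 127 and 101 CPM in the controls and at 124 and 126 CPM in the knockout (log2 fold change 0.09 ± 0.15 SE, adjusted p = 0.777). The libraries read the 3′ ends of transcripts, outside any deleted part, so this value does not check the genotype labels.

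The first question was whether the Nr4a genes differed between genotypes over all LSK cells. Of the 3, only Nr4a1 passed the test. All 3 had lower values in both knockout libraries than in either control library. With 2 libraries against 2, such a separation alone gives p = 0.333 in an exact two-sided permutation test. The share of all genes with such a separation was not counted, so the separation is only a description. Of the 13779 genes tested, 2986 had an unadjusted p under 0.05 with edgeR. Nr4a1 had 31.6 CPM (1865 UMIs) in control replicate 1, 79.9 CPM (1506 UMIs) in control replicate 2, 13.7 CPM (448 UMIs) in knockout replicate 1 and 13.5 CPM (729 UMIs) in knockout replicate 2. The knockout libraries were nearly equal, and the control libraries lay far apart but both above them. Nr4a1 was 4.22-fold lower in the knockout (log2 fold change −2.08 ± 0.41 SE, adjusted p = 0.0464, quasi-likelihood test of edgeR), where 3.44% of the 13779 genes tested passed the threshold of 0.05. With the copied barcodes kept, Nr4a1 read 31.4 and 62.6 CPM in the controls and 15.0 and 13.7 CPM in the knockout, and its log2 fold change was −1.74 (adjusted p = 0.0436). Without control replicate 2 the log2 fold change was −1.23 and without control replicate 1 it was −2.62, with an adjusted p under 0.05 both times, when the remaining control library is assumed to vary like the others. With a robust estimate of the spread the adjusted p was 0.0648, so this call over all LSK cells lay close to the threshold.

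Nr4a2 had 39.7 and 75.8 CPM in the controls, against 23.6 and 31.9 CPM with the knockout. Control replicate 1 and knockout replicate 2 were close to each other. Its log2 fold change was −1.10 ± 0.32 SE, which did not pass the test (adjusted p = 0.110). Nr4a3 was rarely captured, with 104 and 81 UMIs in the controls and 29 and 76 UMIs in the knockout, or 1.76, 4.30, 0.886 and 1.41 CPM. Its log2 fold change was −1.36 ± 0.49 SE (adjusted p = 0.174). With the copied barcodes kept, the log2 fold changes of Nr4a2 and Nr4a3 were −0.87 (adjusted p = 0.0924) and −1.10 (adjusted p = 0.166). In summed counts, fewer cells that make a transcript and less of it per cell cannot be told apart.

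**Figure D1:**
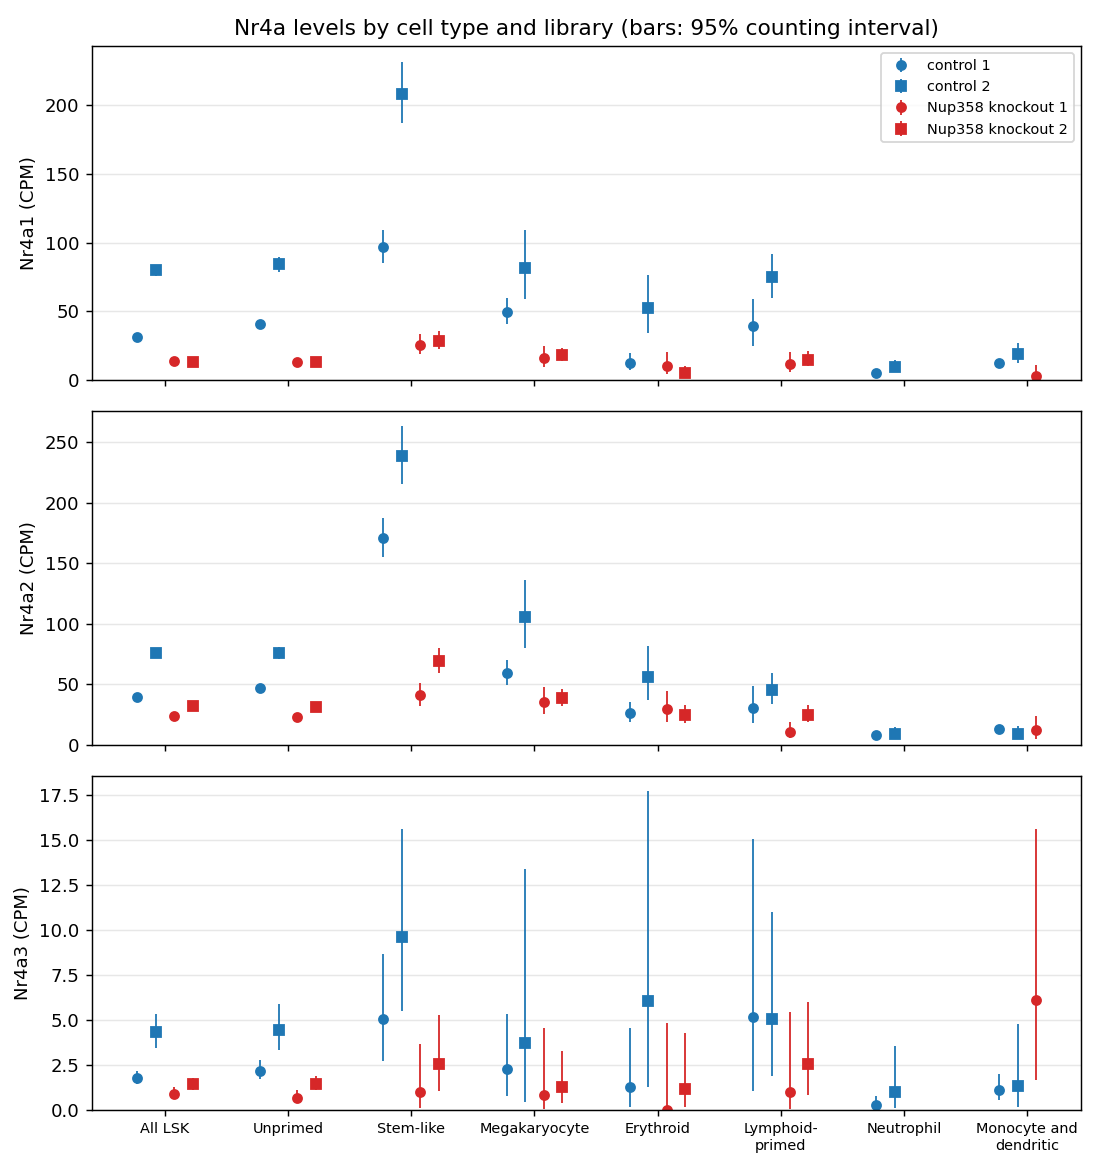
The plot gives the level (CPM, vertical axis from 0) of Nr4a1, Nr4a2 and Nr4a3 in all LSK cells and in the gated cell types (horizontal axis), with a point for each library that had at least 20 cells of the type and a bar for the 95% counting interval. Stem-like cells of the controls stand highest for Nr4a1 (96.8 and 208.5 CPM) and Nr4a2 (170.6 and 238.6 CPM). For both genes the knockout libraries lie below the controls in unprimed, stem-like, megakaryocyte and lymphoid-primed cells. The share of all genes with such a separation was not counted, so this is only a description. Points of Nr4a3 rest on few UMIs.

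To place the family among progenitor types, cells with at least 2000 UMIs (13480 cells) were gated on lists of marker genes that hold no Nr4a member. A cell took the name of a list when the UMIs of the list were at least 3 times its mean rate, and the remaining cells were called unprimed. It also needed at least 3 UMIs from at least 2 genes of the list, which asks a higher rate of a shallow cell. The gate was therefore stricter for shallow cells, such as many of control replicate 1. The part of this in the comparisons within types was not tested. The gates named 1147 stem-like cells (Procr, Mecom, Hlf, Fgd5, Hoxb5 and Mllt3), 562 megakaryocyte, 269 erythroid, 298 lymphoid-primed, 884 neutrophil and 1138 monocyte and dendritic cells, and 8702 cells were unprimed. All check genes outside the lists were higher on average in their type than in unprimed cells, among them Slamf1 in stem-like cells. Not all were higher in every library. Gp6 was almost absent in megakaryocyte cells (0.080 against 0.016 CPM) and higher in 1 of 4 libraries. Cd22 in B-lineage cells was higher in 2 of 4. Rhd in erythroid cells, and Cd200r3 and Il1rl1 in basophil and mast cells, were higher in 3 of 4. The stem-like gate cuts a continuous range, since 342 of its cells lay within 25% above the cut and 489 cells outside the gate within 25% below it. Unprimed, stem-like, megakaryocyte, erythroid and lymphoid-primed cells had at least 20 cells in every library and were tested.

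All 3 Nr4a genes were higher in stem-like than in unprimed cells. Compared with unprimed cells of the same library, Nr4a1 was 2.09-fold higher (log2 fold change 1.06 ± 0.08 SE, adjusted p = 1.7e-06), and it was higher in 4 of 4 libraries. Nr4a2 was 2.48-fold higher (1.31 ± 0.13, adjusted p = 1.0e-05) and Nr4a3 1.87-fold higher (0.90 ± 0.26, adjusted p = 0.0146), each in 4 of 4 libraries. For this comparison 40.2% of the 11383 genes tested passed the threshold, so a call alone is common here. The call for Nr4a3, which had only 2 to 16 UMIs per library in stem-like cells, was lost without either control library, with DESeq2 and with a gate at 5 times the mean rate. With copied barcodes kept, the log2 fold changes were 1.10, 1.32 and 0.94.

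In the libraries, Nr4a1 in stem-like cells read 96.8 and 208.5 CPM in the controls against 25.3 and 28.8 CPM in the knockout. In unprimed cells it read 40.6 and 84.3 CPM in the controls against 13.4 and 13.1 CPM in the knockout. The stem-like cells of the knockout therefore lay below the unprimed cells of both controls. Nr4a2 in stem-like cells read 170.6 and 238.6 CPM in the controls and 41.0 and 69.3 CPM in the knockout, and in unprimed cells 47.2, 75.9, 23.1 and 31.6 CPM. Nr4a3 in stem-like cells read 5.05, 9.61, 1.01 and 2.55 CPM, and in unprimed cells 2.18, 4.45, 0.676 and 1.43 CPM.

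The lineage-primed types differed from unprimed cells gene by gene. In megakaryocyte cells Nr4a2 was higher (log2 fold change 0.33 ± 0.08 SE, adjusted p = 0.0023, higher in 4 of 4 libraries), while Nr4a1 (0.21 ± 0.10, adjusted p = 0.155) and Nr4a3 (−0.10 ± 0.45) did not pass. Over all genes 24.1% passed in that comparison. In erythroid cells Nr4a1 was 2.05-fold lower (−1.03 ± 0.21, adjusted p = 0.0033, lower in 4 of 4 libraries) and Nr4a2 did not pass (−0.33 ± 0.17, adjusted p = 0.177), where 22.9% of all genes passed. In lymphoid-primed cells it was Nr4a2 that was lower (−0.61 ± 0.14, adjusted p = 0.00087, lower in 4 of 4 libraries), and Nr4a1 was within its error of unprimed cells (−0.06 ± 0.13), where 14% of all genes passed. Nr4a3 had at most 6 UMIs in any library of these 3 types and supports no statement there. The call for Nr4a2 in megakaryocyte cells was lost with a gate at 5 times the mean rate (0.26, adjusted p = 0.118).

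Ordered by the mean over the 4 libraries, Nr4a1 ran from stem-like (89.9 ± 85.7 CPM, SD) to megakaryocyte (41.4 ± 30.7), unprimed (37.8 ± 33.5), lymphoid-primed (35.2 ± 29.2) and erythroid cells (20.2 ± 21.7). The SDs hold the difference between genotypes and do not use the pairing of types within a library, so they do not test this order. In the tests within libraries given above, Nr4a1 did not pass in megakaryocyte or lymphoid-primed cells against unprimed cells. Nr4a2 ran from stem-like (129.9 ± 91.4 CPM, SD) to megakaryocyte (59.8 ± 32.2), unprimed (44.5 ± 23.2), erythroid (34.4 ± 14.9) and lymphoid-primed cells (28.1 ± 14.4).

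Neutrophil, monocyte and dendritic cells held less Nr4a1 and Nr4a2 RNA than unprimed cells of the same control library, and they were too few in the knockout to be read. Neutrophil cells numbered 817 and 60 in the controls and 3 and 4 in the knockout. Nr4a1 there read 5.37 and 9.37 CPM and Nr4a2 8.33 and 9.37 CPM in the controls, both below the unprimed cells of the same libraries. In monocyte and dendritic cells, 1033 and 58 in the controls, Nr4a1 read 12.4 and 19.0 CPM and Nr4a2 13.2 and 9.19 CPM. The knockout had 34 and 13 such cells with at most 8 UMIs of any member, so that no comparison was made. The part of these cell numbers in the levels over all LSK cells was not tested. B-lineage, basophil and mast, and plasmacytoid dendritic cells had fewer than 20 cells in at least 1 library, with at most 34 UMIs of any member in all 4 libraries together. B-lineage cells numbered 10 and 7 in the controls and 82 and 197 in the knockout, where Nr4a1 read 13.03 and 6.21 CPM, and plasmacytoid dendritic cells 4 and 0 in the controls and 31 and 56 in the knockout, where it read 5.14 and 7.34 CPM.

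Within the tested types, the knockout was lower for Nr4a1 in each, and the largest difference with the smallest adjusted p was in stem-like cells. Nr4a1 there was 5.76-fold lower (log2 fold change −2.53 ± 0.33 SE, adjusted p = 0.0019) and Nr4a2 3.77-fold lower (−1.92 ± 0.26, adjusted p = 0.0023), where 2.99% of the 10183 genes tested passed. Nr4a3 did not pass (−1.89 ± 0.60, adjusted p = 0.0981). With copied barcodes kept, Nr4a1 was at −2.47 and Nr4a2 at −1.91, each with an adjusted p of 0.0049. Without control replicate 2, Nr4a1 was at −1.81 and Nr4a2 at −1.58, and both passed. Restricted to cells with at least 5000 UMIs, the values were −2.47 and −1.78, and neither passed (adjusted p = 0.0932 and 0.177). The median depth of stem-like cells was 3784 UMIs in control replicate 1, against 8936 in control replicate 2 and 12930 and 9734 in the knockout.

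In unprimed cells Nr4a1 fell by 2.22 on the log2 scale (SE 0.35, adjusted p = 0.0343) and 2.8% of all genes passed. This call was lost with a gate at 5 times the mean rate (adjusted p = 0.0656) and with cells of at least 5000 UMIs (adjusted p = 0.106). There Nr4a2 (−1.15 ± 0.27, adjusted p = 0.067) and Nr4a3 (−1.53 ± 0.50, adjusted p = 0.122) did not pass. In lymphoid-primed cells Nr4a1 read 39.5 and 74.9 CPM in the controls and 11.7 and 14.9 CPM in the knockout (−2.18 ± 0.35, adjusted p = 0.0026), where 1.6% of all genes passed. In megakaryocyte cells it read 49.9 and 81.3 CPM in the controls and 16.3 and 18.3 CPM in the knockout (−1.75 ± 0.29, adjusted p = 0.0123), where 0.565% of all genes passed. Nr4a2 did not pass in lymphoid-primed (−1.07 ± 0.36, adjusted p = 0.140) or megakaryocyte cells (−0.99 ± 0.28, adjusted p = 0.174).

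In erythroid cells neither gene passed, and only 0.319% of all genes did. Nr4a1 read 12.6 and 52.4 CPM in the controls and 10.4 and 5.29 CPM in the knockout (−1.95 ± 0.73, adjusted p = 0.497), so that control replicate 2 alone stood well above the others. Nr4a2 overlapped between genotypes (26.5, 56.5, 29.9 and 24.7 CPM, log2 fold change −0.52 ± 0.41). Without control replicate 2, the log2 fold changes were −0.80 for Nr4a1 and 0.04 for Nr4a2.

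**Figure D2:**
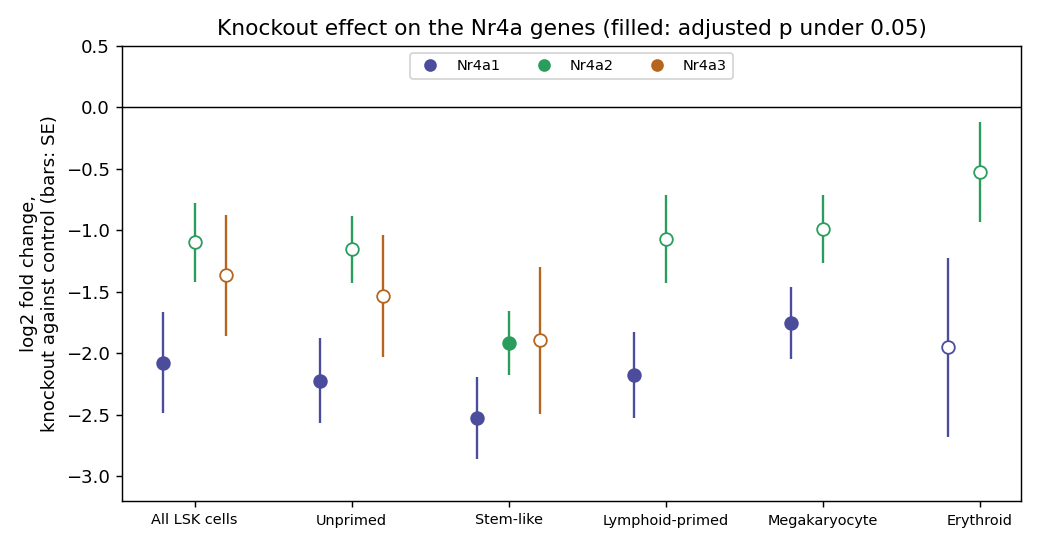
The plot gives the log2 fold change of each Nr4a gene, knockout against control (vertical axis, with its SE), in all LSK cells and in the tested types (horizontal axis). Filled points passed the test: Nr4a1 in all LSK, unprimed, stem-like, lymphoid-primed and megakaryocyte cells, and Nr4a2 in stem-like cells (−1.92).

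Whether the knockout effect itself differed between types was tested by an interaction. For Nr4a2 it was stronger in stem-like than in unprimed cells, by −0.74 ± 0.13 on the log2 scale (adjusted p = 0.0061), where 1.49% of all genes passed. For Nr4a1 (−0.24 ± 0.16, adjusted p = 0.580) and Nr4a3 (−0.39 ± 0.61, adjusted p = 0.867) no such difference passed. In megakaryocyte, erythroid and lymphoid-primed cells, 0 of the 9 tests of a member against unprimed cells passed with edgeR, with 0 at an unadjusted p under 0.05 and 0 of the 3 to which DESeq2 gave an adjusted p. Over all genes 0.82%, 0.61% and 0.719% passed in these 3 types.

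Counts summed over cells can rest on few cells, so cells with a UMI were also counted after each cell was thinned to 2000 UMIs. Over all gated cells, Nr4a1 was seen in 7.91% (95% Clopper-Pearson interval 7.31 to 8.54) and 17.3% (15.2 to 19.6) of control cells. In the knockout it was seen in 3.66% (2.77 to 4.74) and 2.87% (2.32 to 3.50) of cells. The intervals cover counting error only and not the spread between libraries, since those of the 2 control libraries did not overlap each other. Without thinning, the shares were 18.4% and 55.6% in the controls and 19.9% and 17.1% in the knockout, at median depths of 6469, 13251, 18363 and 14918 UMIs. The unthinned share of control replicate 1 thus lay between those of the knockout libraries, whose cells were deeper. In stem-like cells the thinned share of Nr4a1 averaged 26.0% in the controls and 8.04% in the knockout, and that of Nr4a2 24.5% and 11.3%. In neutrophil cells the thinned share of Nr4a1 was 0.734% and 1.67% in the controls, at median depths of 12968 and 33824 UMIs. In erythroid cells it was 0% in control replicate 1 and in both knockout libraries and 10.3% (3 of 29 cells) in control replicate 2. With 2 libraries against 2, the exact permutation test cannot go below p = 0.333, which was the two-sided p of all 3 members over all gated cells.

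Any of the 3 members was seen in 33.7% and 52.1% of thinned stem-like control cells and in 17.4% and 19.0% of thinned stem-like knockout cells. In control replicate 1, Nr4a2 was seen in 35.3% of the 102 stem-like cells with an Nr4a1 UMI and in 18.8% of the 474 without it. The corresponding shares were 31.0% and 25.2% in control replicate 2, 16.7% and 9.09% in knockout replicate 1, and 25% and 11.8% in knockout replicate 2. The positive stem-like cells of the knockout numbered only 12 and 20. In unprimed cells the shares were 15.2% and 8.75% in control replicate 1 and 23.3% and 12.7% in control replicate 2. They were 12.5% and 4.46% in unprimed cells of knockout replicate 1. In knockout replicate 2 the order was reversed, with 3.70% of 54 positive unprimed cells and 5.73% of 2233 others. All these values are a description.

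Cycling state was read from the UMIs of 20 S-phase and 22 G2/M genes, and the cells of each library were ranked by their rate and cut into 3 equal parts. Cells in the lowest part are called low-cycle here and those in the highest part high-cycle. In both control libraries Nr4a1 and Nr4a2 had higher values in low-cycle cells, and in the knockout libraries their values were close to each other. Nr4a3 read 2.88 and 9.81 CPM in low-cycle and 1.60 and 2.48 CPM in high-cycle control cells, against 1.77, 1.4, 0.636 and 1.31 CPM in the same order in the knockout. Nr4a1 read 70.9 and 167 CPM in low-cycle and 23.1 and 46.1 CPM in high-cycle control cells. In the knockout it read 15.1 and 13.3 CPM in low-cycle and 12.9 and 14.9 CPM in high-cycle cells. Nr4a2 read 97.1 and 145 CPM in low-cycle and 26.7 and 45.5 CPM in high-cycle control cells, against 27.2, 32.3, 25.8 and 36.8 CPM in the same order in the knockout. High-cycle cells of control replicate 1 and of knockout replicate 1 were thus alike in Nr4a2, and the genotypes overlapped there.

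Over the 4 libraries together, no member passed between high-cycle and low-cycle cells. The log2 fold changes were −0.91 ± 0.34 SE for Nr4a1 (adjusted p = 0.112), −0.85 ± 0.36 for Nr4a2 (adjusted p = 0.148) and −1.04 ± 0.34 for Nr4a3 (adjusted p = 0.0891), where 9.6% of all genes passed. Of the members, 2 had an unadjusted p under 0.05, as did 4185 of all 11891 genes tested, and DESeq2 called 0. The difference between genotypes in this contrast was tested after its values had been seen. The knockout effect was weaker in high-cycle than in low-cycle cells, by 1.58 ± 0.18 on the log2 scale for Nr4a1 (adjusted p = 0.0139) and by 1.70 ± 0.16 for Nr4a2 (adjusted p = 0.0114), where 12.3% of all genes passed. For Nr4a3 the difference was 0.65 ± 0.64 (adjusted p = 0.531). Both calls were lost without knockout replicate 1 (adjusted p = 0.104 and 0.0982) and with cells of at least 5000 UMIs (adjusted p = 0.922 for each), at which no gene of all tested passed. Without knockout replicate 2 the call for Nr4a1 was lost (adjusted p = 0.0649).

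The low-cycle cells of the genotypes were not equally low. Their rate of cell cycle UMIs was 17.3 and 6.74 per 10000 in the controls and 27.6 and 36.7 per 10000 in the knockout, while high-cycle cells had 78.5, 66.8, 70.6 and 79.4 per 10000. Stem-like cells made up 15.3% and 29.5% of low-cycle control cells and 14.4% and 12.5% of low-cycle knockout cells. The median depth of low-cycle cells was 3526 and 9433 UMIs in the controls and 11711 and 9992 UMIs in the knockout. High-cycle cells were deeper in every library, with 8363 and 21131 UMIs in the controls and 24159 and 17693.5 UMIs in the knockout. Neutrophil cells made up 9.66% and 10.1% of high-cycle control cells and 0.20% and 0% of high-cycle knockout cells. The part of these differences in the result was not tested.

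**Figure D3:**
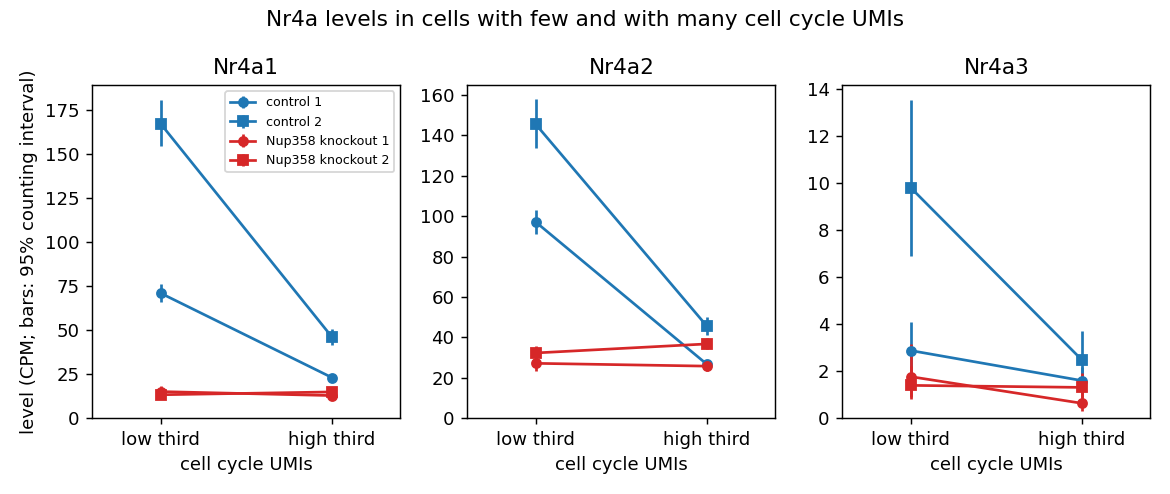
The plot gives the level (CPM, vertical axis from 0, bars for the 95% counting interval) of each Nr4a gene in low-cycle cells (left) and high-cycle cells (right), with a line for each library. The control lines fall, for Nr4a1 from 70.9 and 167 CPM to 23.1 and 46.1 CPM, and the knockout lines of Nr4a1 and Nr4a2 stay near level.

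The Nr4a genes are immediate early genes, and other genes of that class were counted beside them. This list was chosen with earlier results of these data known. Its counts here and below are therefore descriptions and no separate support. Of 18 immediate early genes tested over all LSK cells, 9 fell in the knockout, 0 rose and all 18 had a lower value, with a median log2 fold change of −1.27 beside −0.01 over all genes. Among those that fell, Egr1, a zinc finger factor induced by growth signals, had a log2 fold change of −2.23 ± 0.20 SE (adjusted p = 0.0067). Fos (−1.62 ± 0.21, adjusted p = 0.0151), Jun (−1.66 ± 0.17, adjusted p = 0.0077) and Jund (−1.24 ± 0.19, adjusted p = 0.0231), which together form AP-1 factors, fell as well. The others that fell were Atf3 (−1.97), Btg2 (−1.65), Klf6 (−1.29), Ier2 (−1.08) and Egr3, which had 0.122 and 0.0557 CPM in the knockout libraries. Fosb, at 380 and 280 CPM in the controls and 208 and 194 CPM in the knockout, did not pass (adjusted p = 0.0683). The count that fell was 14 with DESeq2. Over all 13779 genes, 474 passed with edgeR and 946 with DESeq2.

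In stem-like cells 15 of the 16 immediate early genes tested fell, where 2.99% of all genes passed. Their median was −1.86 beside −0.01 over all genes. Egr1 fell by 3.36 on the log2 scale (SE 0.22, adjusted p = 1.8e-05), Btg2 by 2.69, Jun by 2.41 and Fos by 2.20, and Klf4 (−0.82) did not pass. The count was 5 with cells of at least 5000 UMIs. The fall of Nr4a1 (−2.53) lay among these values. In unprimed, lymphoid-primed, megakaryocyte and erythroid cells, whose counts follow, 2.8%, 1.6%, 0.565% and 0.319% of all genes passed. In unprimed cells 11 of 18 fell, a count that was 6 without knockout replicate 1, 17 without control replicate 1 and 2 with cells of at least 5000 UMIs. In lymphoid-primed cells 10 of 15 fell, with 4 of 16 without knockout replicate 1. In megakaryocyte cells 8 of 16 fell, with 13 without control replicate 2 or without knockout replicate 2. In erythroid cells 1 of 16 fell, with 9 without control replicate 1, 4 without control replicate 2 and 0 without either knockout library. Compared with unprimed cells, 15 of 17 immediate early genes were higher in stem-like cells (median 0.55), where 40.2% of all genes passed, with Klf2 (1.58 ± 0.13) and Klf4 (1.17 ± 0.12) highest, and the count was 10 of 16 without control replicate 1. Between high-cycle and low-cycle cells 5 of 17 were lower in high-cycle cells (Junb, Ier3, Ier5, Btg2 and Atf3) and none was higher, where 9.6% of all genes passed. That count was 0 without control replicate 1 or without knockout replicate 1, 1 without control replicate 2 and 15 of 18 without knockout replicate 2. The knockout effect was stronger in stem-like than in unprimed cells for 9 of 18 immediate early genes, where 1.49% of all genes passed, and for 0 with cells of at least 5000 UMIs. It was weaker in high-cycle than in low-cycle cells for 12 of 18, where 12.3% of all genes passed, and for 0 without either knockout library or with cells of at least 5000 UMIs. The part of this wider change in that of the Nr4a genes was not tested. Calls over all genes also moved with these settings, so a larger count under a setting is not a result about this list.

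**Figure D4:**
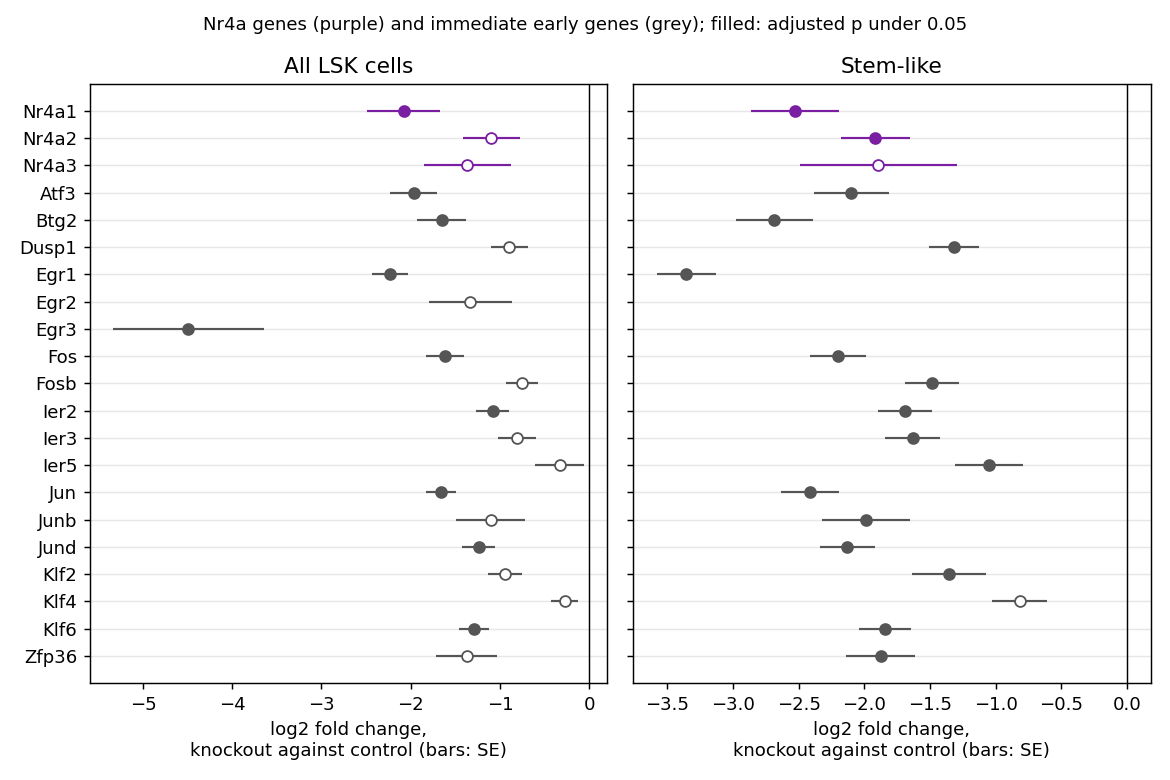
The plot gives the log2 fold change, knockout against control (horizontal axis, bars for the SE), of the Nr4a genes (purple) and 18 immediate early genes (grey), in all LSK cells (left) and stem-like cells (right), with filled points for those past the threshold. All points lie below 0, and in stem-like cells 15 of 16 immediate early genes are filled, where 2.99% of all genes passed.

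The factors that act on the Nr4a promoters, and the partners of the Nr4a proteins, were counted in the same way. Of 22 such genes tested over all LSK cells, 0 passed with edgeR, 3 had an unadjusted p under 0.05 and 1 passed with DESeq2. Their median log2 fold change was 0.02. Over all genes 3.44% passed with edgeR and 2986 of 13779 had an unadjusted p under 0.05, so a count of 0 among 22 says little. Mef2c, a MADS-box factor, was the most abundant of them at 328 and 384 CPM in the controls and 274 and 261 CPM in the knockout. Creb1, which binds the cAMP response element, read 66.2 and 50.7 CPM in the controls and 54.3 and 57.7 CPM in the knockout. Rxrb, a retinoid X receptor, read 70.8 and 51.9 CPM against 50.9 and 55.9 CPM, and Atf1, a relative of Creb1, 46.5 and 52.6 CPM against 55.2 and 57.3 CPM. The genotypes overlapped for Creb1 and Rxrb. In stem-like cells 0 of the 20 tested passed with edgeR or DESeq2, with 3 at an unadjusted p under 0.05. Over all genes there, 2.99% passed with edgeR and 2104 of 10183 had an unadjusted p under 0.05. In lymphoid-primed cells Nfatc3, a calcium-regulated factor, was higher in the knockout (1.31 ± 0.32 SE, adjusted p = 0.0450), alone among the 17 tested, and this call was lost with DESeq2, without control replicate 2 and without either knockout library. In unprimed, megakaryocyte and erythroid cells 0 of 22, 17 and 16 passed, with 4, 0 and 1 at an unadjusted p under 0.05. Over all genes 2.8%, 0.565% and 0.319% passed in these types, and 1.6% in lymphoid-primed cells. In unprimed, megakaryocyte and erythroid cells, 3266 of 13015, 1093 of 9210 and 663 of 8147 genes had an unadjusted p under 0.05.

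Some of these factors were themselves higher in stem-like than in unprimed cells. There 5 of 22 were higher and 0 lower, a share close to that of all genes, of which 2147 of 11383 were higher. The 5 were Nfatc2 (1.09 ± 0.14), Rxra (1.06 ± 0.22), Elk4 (0.40 ± 0.08), Mef2a (0.33 ± 0.09) and Mef2c (0.22 ± 0.06). Rxra encodes a partner with which Nr4a1 and Nr4a2 can pair on DNA. Its level was low, 2.3 to 3.6 CPM over all LSK cells.

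Over the 20 sums of the 5 tested types in 4 libraries, genes were also ranked by how closely they followed each member, with log2(CPM + 5) centred within each library. The sums of a library share its depth and its mice, so the correlations are descriptions. Closest to Nr4a1 among 8085 genes were Akap13 (Pearson r = 0.96), Gimap1 (0.95), 2810403A07Rik (0.95), Nbeal2 (0.93) and Ccpg1 (0.93). Closest to Nr4a2 were Skil (0.95), Dst (0.95), the immediate early gene Junb (0.94), Spsb2 (0.93) and 2310001H17Rik (0.92). Closest to Nr4a3 were Kat6b (0.89), Rsrp1 (0.87), Pias1 (0.85), Nfkbid (0.85) and Zfp113 (0.83). Nr4a3 averaged only 2.86 CPM over these sums, below the 5 CPM added before the log. All its ranks and correlations here therefore rest on few UMIs and support no statement. Among the members, Nr4a1 and Nr4a2 correlated with r = 0.84, Nr4a1 and Nr4a3 with 0.68, and Nr4a2 and Nr4a3 with 0.46. Many other genes followed a member more closely. Nr4a2 stood at rank 188 for Nr4a1, and Nr4a1 at rank 74 for Nr4a2. Nr4a3 stood at rank 964 for Nr4a1 and at rank 1863 for Nr4a2.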

How the data were processed

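RNA of sorted LSK cells was counted in 4 libraries made with 10x 3′ chemistry. Per the labels, the authors used Cell Ranger 3.1 and mm10 (GRCm38), and they deposited whole-number UMI counts per gene and called cell barcode, without normalization. The members and the gene lists were chosen with earlier results of these data known. Cells with fewer than 200 genes or over 10% mitochondrial UMIs, and copied barcodes, were left out, and doublets were not removed. UMIs were summed per library and cell group. A gate needed at least 3 UMIs from at least 2 genes of its list. Sums were tested with edgeR 4.0.16 (R 4.3.3, limma 3.58.1), with filterByExpr, TMM scaling, the quasi-likelihood test and Benjamini-Hochberg adjustment over all genes tested at 0.05. Type and cell cycle tests had the library as a block. Named genes were the members, the genes of 2 lists that passed, the 4 most abundant of each list and the 5 closest genes of each member. Python 3.11.15, numpy 2.4.6, scipy 1.17.1, pandas 2.3.3 and matplotlib 3.10.9 were used for the rest.

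The fits were tested on simulated data for knockout against control over all LSK cells, with 200 genes changed. With gene-wise dispersions, 64% of those changed by a log2 fold of 1 and 90% of those changed by 2 were found among 13757 genes, with 11.5% false calls, and with trended dispersions false calls were 1.79%. In stem-like cells the false calls were 10.1% and 3.92%. The true rate may therefore exceed 5%, and calls close to the threshold are less certain. Each library's depth is given in the report. The alternatives were copied barcodes kept, DESeq2 1.42.0, no filter, blocks, each library left out, other gates, depths and cycle cuts, and, chosen after seeing the data, thinned cells and a robust fit. No column of another sample was found.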

Additional observations from a re-analysis of the deposited data

Results flagged for a closer look

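The knockout effect on Nr4a2 differed between stem-like and unprimed cells by −0.74 on the log2 scale (adjusted p = 0.0061, edgeR interaction test), with 238.6 and 170.6 CPM in stem-like control cells against 69.3 and 41.0 CPM in stem-like knockout cells. The difference kept its sign in all 11 alternatives and passed in 9 of them, with adjusted p from 1.9e-07 to 0.228, and it was lost with a gate at 5 times the mean rate and with cells of at least 5000 UMIs.

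The knockout effect also differed between high-cycle and low-cycle cells, by 1.58 for Nr4a1 and by 1.70 for Nr4a2 on the log2 scale (adjusted p = 0.0139 and 0.0114). This contrast was chosen after seeing the data. Over its 11 alternatives the difference for Nr4a1 passed in 8 and that for Nr4a2 in 9, with adjusted p up to 0.922 for each.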

How the results depend on the processing

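Of 461 values computed under an alternative, 400 kept their direction and, where a call was made, their side of the threshold. Of the others, 35 passed only under the alternative, 20 no longer passed and 6 changed sign. The 461 include shares of cells, judged by direction alone, and counts of members called, judged by staying equal. With copied barcodes kept, all 36 values stayed the same in this sense. The causes of the changes were not tested, and all values below are log2 fold changes.

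Against the control, these passed only under an alternative. With DESeq2 they were Nr4a2 over all LSK cells (−1.09) and in unprimed cells (−1.16). Without the low-count filter they were Nr4a2 and Nr4a3 over all LSK cells (−1.08 and −1.34) and in unprimed cells (−1.16 and −1.53), Nr4a2 in megakaryocyte (−0.96), Nr4a1 in erythroid (−1.93) and Nr4a3 in stem-like cells (−1.89). With the replicate block they were Nr4a2 and Nr4a3 over all LSK cells (−1.04 and −1.36) and in unprimed cells (−1.13 and −1.64), Nr4a2 in megakaryocyte (−1.09) and Nr4a3 in stem-like cells (−2.06). The same numbers did not pair the libraries (r = −0.18 across 7924 genes). A crossed pairing, chosen after seeing the data, set control replicate 1 with knockout replicate 2 and control replicate 2 with knockout replicate 1. Over all LSK cells the replicate block gave 1257 calls and the crossed pairing 1735, against 474. The crossed pairing gave −1.03 and −1.12 for Nr4a2 over all LSK and unprimed cells, −1.87 for Nr4a1 in erythroid, −1.87 for Nr4a3 in stem-like and −1.11 for Nr4a2 in lymphoid-primed cells. With thinned cells Nr4a2 in unprimed cells (−1.30) and Nr4a1 between high-cycle and low-cycle cells (−1.15) passed.

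No longer past the threshold were Nr4a1 over all LSK cells with the robust fit (−2.08), in unprimed cells at gate fold 5 (−2.14) and at 5000 UMIs (−2.11), and in megakaryocyte cells when thinned (−2.98). At 5000 UMIs the same held in stem-like cells for Nr4a1 (−2.47) and Nr4a2 (−1.78), for the stem-like interaction of Nr4a2 (−0.69, and −0.63 at gate fold 5) and for the cell cycle interaction of Nr4a1 and Nr4a2 (1.03 and 1.11). Against unprimed cells it held for Nr4a2 in megakaryocyte cells at gate fold 5 (0.26) and thinned (0.27), for Nr4a2 in lymphoid-primed cells thinned (−0.66), and for Nr4a3 in stem-like cells with DESeq2 (0.87) and at gate fold 5 (0.86). The values that changed sign were Nr4a3 in megakaryocyte cells at 5000 UMIs (0.0034), and Nr4a1 in lymphoid-primed cells at 5000 UMIs (0.013), thinned (0.057) and without control replicate 2 (0.018). The others were Nr4a2 in erythroid cells of the knockout without control replicate 2 (0.037) and the cell cycle interaction of Nr4a3 without knockout replicate 2 (−0.25).

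Leaving out 1 library at a time, the knockout values over all LSK cells ran from −2.62 to −1.23 for Nr4a1, −1.51 to −0.53 for Nr4a2 and −1.94 to −0.60 for Nr4a3. They ran from −1.51 to −0.73 for Nr4a2 and −2.24 to −0.94 for Nr4a3 in unprimed cells, −1.53 to −0.59 for Nr4a2 in megakaryocyte cells, −3.02 to −0.80 for Nr4a1 and −1.22 to 0.037 for Nr4a2 in erythroid cells, −2.77 to −1.38 for Nr4a3 in stem-like cells and −1.87 to −0.59 for Nr4a2 in lymphoid-primed cells. Against unprimed cells they ran from −0.49 to −0.15 for Nr4a2 in erythroid cells, 0.81 to 0.96 for Nr4a3 in stem-like cells and −0.13 to 0.018 for Nr4a1 in lymphoid-primed cells. For high-cycle cells they ran from −1.24 to −0.60 for Nr4a1, and for the cell cycle interaction from 1.33 to 1.74 for Nr4a1, 1.52 to 1.81 for Nr4a2 and −0.25 to 1.18 for Nr4a3.

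Counts of genes called moved more. Knockout calls ran from 224 to 2890 over all LSK cells, 39 to 3511 in unprimed (364), 16 to 2101 in stem-like (304), 29 to 745 in lymphoid-primed (133), 8 to 370 in megakaryocyte (52) and 2 to 310 in erythroid cells (26). Calls between high-cycle and low-cycle cells ran from 0 to 2543 (1142), those of the cell cycle interaction from 0 to 2868 (1557) and those of the stem-like interaction from 0 to 440 (179).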
